A study of Homo sapiens with 6 samples.

Results

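The AP-1 factors and their activating kinase JNK1 were followed in DEV cells, a cell line established from nodular lymphocyte predominant Hodgkin lymphoma (NLPHL). The 10 genes are JUN, JUNB and JUND of the JUN family, FOS, FOSB, FOSL1 and FOSL2 of the FOS family, BATF and BATF3 of the BATF family, and MAPK8, which encodes JNK1. They were chosen by gene symbol, each had 1 probe set on the Affymetrix human Gene 1.0 ST array, and they make up 10 of 18404 genes with a probe set of their own and 10 of 32321 probe sets in all. The 6 arrays form 3 groups of 2: DEV cells grown alone (monoculture), DEV cells grown with CD3-positive T cells (T cell coculture) and DEV cells grown with CD14-positive monocytes (monocyte coculture). T cells and monocytes came from the blood of healthy persons and were added at 10 blood cells to 1 lymphoma cell. After 5 days DEV cells were recovered from the cocultures with magnetic beads against CD4, CD8 and CD14, a step that the methods describe for the cocultures alone. All groups are thus 1 cell line, and the 2 replicates of each group were picked by the authors as representative of several experiments. Nothing in the labels says whether replicates were separate cultures, so p-values measure the spread between these samples, which may be technical.

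AP-1 is a transcription factor made of pairs of basic leucine zipper (bZIP) proteins. JUN proteins can pair with each other, whereas FOS proteins need a JUN partner, and BATF proteins, which lack a transactivation domain, also pair with JUN proteins and bind composite sites together with IRF4 or IRF8 in lymphocytes. The kinase JNK1 phosphorylates the activation domain of JUN. High expression of JUN, JUNB and BATF3 is a known feature of the tumor cells of classical Hodgkin lymphoma.

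Promoter sequences are shown for 4 members because JUN and BATF had lower values in every coculture array than in either monoculture array, MAPK8 had higher ones, and JUND, which holds the other motif match, overlapped with monoculture over the 4 coculture arrays. The 250 bases before the gene's start were taken from RefSeq (GRCh38.p14, 5′ to 3′ in the direction of the gene), where 8 of the 10 members were matched by symbol (FOSL1 and BATF3 were not among them). Both strands were searched for the AP-1 motif TGANTCA, the cyclic AMP response element TGACGTCA, the related sequence TGACATCA, and the CArG box bound by serum response factor, and matches stand in capitals. None of the motifs found overlapped another.
JUN, chr1:58784048-58784297, minus strand: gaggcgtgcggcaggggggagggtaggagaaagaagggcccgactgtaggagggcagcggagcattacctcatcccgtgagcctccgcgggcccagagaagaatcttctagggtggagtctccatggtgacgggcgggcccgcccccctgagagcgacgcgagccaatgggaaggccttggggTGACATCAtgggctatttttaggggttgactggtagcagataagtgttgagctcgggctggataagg
JUND, chr19:18281623-18281872, minus strand: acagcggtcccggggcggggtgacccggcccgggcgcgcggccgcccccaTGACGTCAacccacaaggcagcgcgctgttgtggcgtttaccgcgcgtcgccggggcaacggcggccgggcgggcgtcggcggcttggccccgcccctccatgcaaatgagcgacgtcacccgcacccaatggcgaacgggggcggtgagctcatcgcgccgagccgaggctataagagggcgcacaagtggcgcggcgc
BATF, chr14:75522219-75522468, plus strand: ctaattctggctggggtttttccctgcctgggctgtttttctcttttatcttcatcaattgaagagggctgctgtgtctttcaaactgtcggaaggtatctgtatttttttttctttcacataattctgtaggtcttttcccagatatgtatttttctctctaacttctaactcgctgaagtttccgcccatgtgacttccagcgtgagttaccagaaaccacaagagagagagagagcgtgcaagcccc
MAPK8, chr10:48306427-48306676, plus strand: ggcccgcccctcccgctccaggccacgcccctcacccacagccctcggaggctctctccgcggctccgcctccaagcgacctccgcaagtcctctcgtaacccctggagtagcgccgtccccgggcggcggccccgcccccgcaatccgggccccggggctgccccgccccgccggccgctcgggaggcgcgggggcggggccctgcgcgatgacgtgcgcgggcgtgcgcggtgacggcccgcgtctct
JUN held TGACATCA from 67 to 60 bases before its start, as do 2.37% of 35116 promoters of this length. JUND held TGACGTCA from 200 to 193 bases before its start, as do 1.65% of all promoters. TGANTCA, present in 6.57% of all promoters, and the CArG box, present in 1.16%, were not found in these windows of the 8 members. The G and C content of the windows was 62% for JUN, 74.8% for JUND, 43.2% for BATF and 80.4% for MAPK8. A match is a description of letters and was not tested for binding.

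Array medians lay between 5.64 and 5.73 on the log2 scale. Probe sets that exceeded the mean of monoculture by over 1 log2 unit numbered 79 in T cell coculture replicate 1, the array closest to monoculture, and 130 to 358 in the other coculture arrays. Monocyte coculture replicate 1 stood apart in LYZ, the lysozyme gene of monocytes, at 8.42 against 4.98 to 5.09 in the other 5 arrays, and in CD14, at 6.15 against 5.21 to 5.42. CD68, a lysosomal protein of macrophages and the monocyte marker with the largest difference, was high in both monocyte coculture arrays, at 9.15 and 9.45 against 7.13 and 7.62 in monoculture and 7.64 and 8.44 in T cell coculture (1.92 ± 0.29 with monocytes, limma adjusted p = 0.0539). MNDA and VCAN had lower means with monocytes (-0.69 ± 0.25 and -0.19 ± 0.23). Of 14 monocyte markers 13 were measured, and their mean level was 6.37 in that array, 5.94 in monocyte coculture replicate 2, 5.77 and 5.89 in monoculture and 5.85 and 5.89 in T cell coculture. The 12 T cell markers had a mean level of 5.68 and 5.63 in T cell coculture, 5.59 in both monoculture arrays and 5.58 and 5.57 in monocyte coculture, with CD3D at 8.26 and 8.33 in monoculture and 7.55 and 7.47 with monocytes (a call in that comparison, limma adjusted p = 0.0455). For both cocultures limma called 0 markers of any cell type, with 3 monocyte, 2 T cell, 4 B cell, 1 NK cell and 1 platelet marker at an unadjusted p under 0.05, and the median differences of the NK cell and platelet lists (6 genes each) were 0.11 and 0.10. At that unadjusted p stood 23.1% of the monocyte, 16.7% of the T cell and 57.1% of the B cell list. The share was 16.7% each for the NK cell and platelet lists, and 18.8% for all probe sets. Of the 8 B cell markers 7 were measured, of which none was called. MS4A1 (CD20) stood at 9.22 and 9.21 in monoculture and between 9.62 and 9.87 in the cocultures, and CD22 at 9.03 and 9.37 in monoculture and between 9.66 and 10.12 in the cocultures. CD79A stood between 8.73 and 9.39 in all arrays, and CD79B had a lower mean in the cocultures (-0.61 ± 0.34). PAX5 stood at 10.23 and 10.00 in monoculture, 9.57 and 7.77 in T cell coculture and 8.26 and 7.43 in monocyte coculture. The study described efficient removal of blood cells by flow cytometry, and no raised T cell or monocyte transcripts in recovered DEV cells. LYZ and CD14 were nevertheless higher in monocyte coculture replicate 1, and CD68 in both monocyte coculture arrays. The part of remaining blood cells in the values below was not tested. Values without monocyte coculture replicate 1 are given for BATF3, BATF, JUN, MAPK8 and PRDM1. A lower value can come from fewer cells with the transcript or from less transcript per cell, which cannot be told apart here.

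BATF3 fell in the cocultures, and BATF and JUN had lower means that missed the threshold, while MAPK8 had a higher mean that missed it as well. Of the 10 members, 1 was called for both cocultures against monoculture (limma, Benjamini-Hochberg adjusted p under 0.05 over all probe sets), where 0.718% of all probe sets were called. With monocytes 1 was called, against 0.579% of all probe sets. With T cells 0 were called by limma, against 0% of all probe sets, and 4 members had an unadjusted p under 0.05, against 15.4% of all probe sets. The median log2 difference of the members was -0.013 for both cocultures against 0.028 over all probe sets, and the median of its size was 0.24 against 0.11. At an unadjusted p under 0.05 there were 4 of 10 members for both cocultures, against 18.8% of all probe sets, and 4 with monocytes, against 17.5%. Over the 18404 genes, each by its probe set of highest mean, these shares were higher, at 21.4% and 19.9%. With T cells the share of genes was 17.5%.

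**Figure D1:**
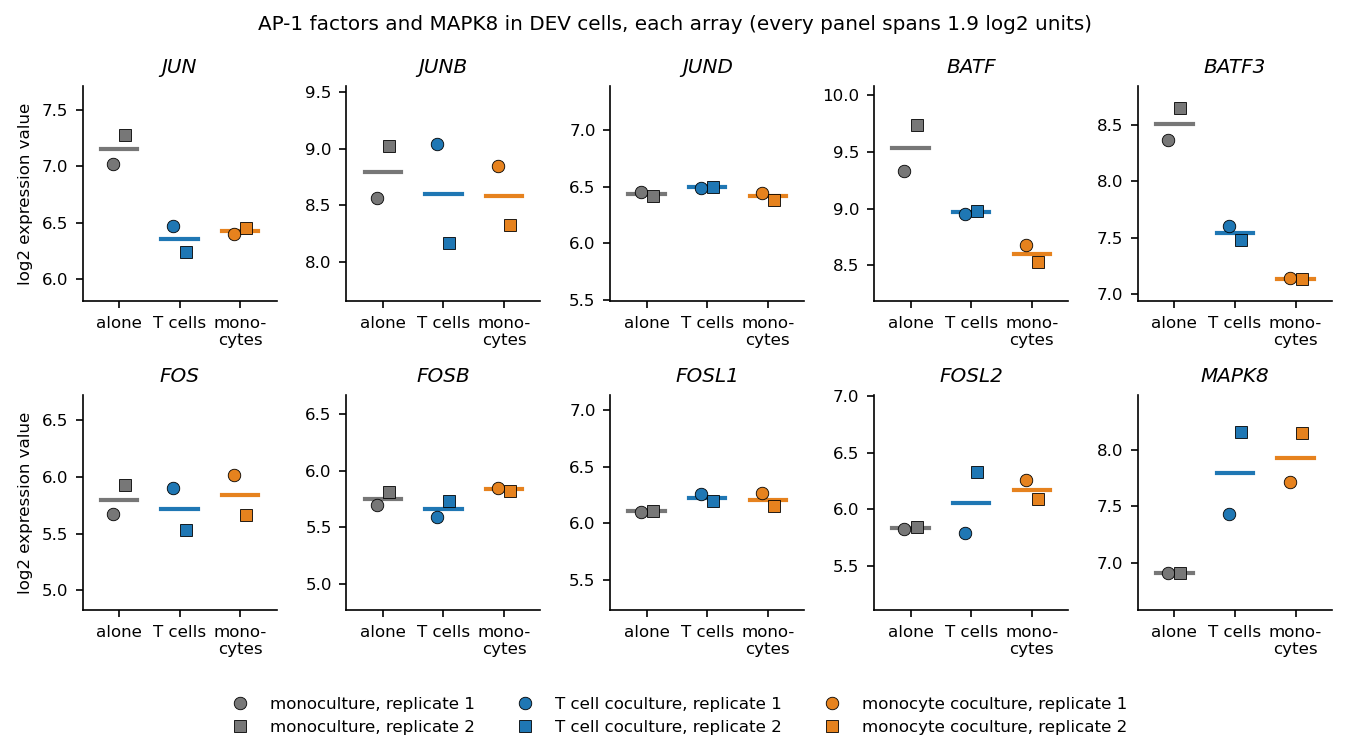
Log2 expression value of each member in each of the 6 arrays, coloured by group (grey for monoculture, blue with T cells, orange with monocytes), where a circle is replicate 1, a square replicate 2 and a bar their mean. BATF3 stood at 8.37 and 8.65 in monoculture and at 7.60 or below in the cocultures, and JUNB replicates lay far apart in each group.

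BATF3 had the largest difference in size of the 10 members. This gene, an AP-1 factor with little more than the bZIP domain, stood at 8.37 and 8.65 in monoculture, 7.60 and 7.48 in T cell coculture, and 7.14 in both monocyte coculture arrays. The 3 groups did not overlap, monoculture being highest and monocyte coculture lowest. BATF3 fell by 1.17 ± 0.10 (SE) over both cocultures, that is 2.24-fold (95% confidence interval of the log2 difference -1.42 to -0.91, limma adjusted p = 0.0338). With monocytes it fell by 1.37 ± 0.12 (2.58-fold, limma adjusted p = 0.0398). With T cells the difference was -0.97 ± 0.12 (limma adjusted p = 0.0943) and did not pass. The difference between monocyte and T cell coculture was -0.40 ± 0.12 (interval -0.69 to -0.11), with an unadjusted p = 0.0156 and a limma adjusted p = 0.547. The call for both cocultures was lost without any 1 of 4 arrays, in fits where 1 group holds a lone array. Calls over all probe sets were lost as well without either monoculture array or without monocyte coculture replicate 1. The difference without monocyte coculture replicate 1, the array with high LYZ, was -1.17. Monoculture replicate 1 left out gave -1.30, its replicate 2 left out gave -1.03, and -1.17 resulted when monocyte coculture replicate 2 was left out.

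BATF, which is needed for class switching and for several T helper subsets, showed the same order of groups. It stood at 9.33 and 9.74 in monoculture, 8.95 and 8.98 in T cell coculture, and 8.68 and 8.53 in monocyte coculture. The 3 groups did not overlap. Over both cocultures the difference was -0.75 ± 0.13 (1.68-fold, interval -1.07 to -0.43, limma adjusted p = 0.059), with T cells -0.57 ± 0.15 (adjusted p = 0.172) and with monocytes -0.93 ± 0.15 (adjusted p = 0.0568). Monocyte and T cell coculture differed by -0.36 ± 0.15 (interval -0.73 to 0.0028). Leaving out the 40% dimmest probe sets brought BATF over the threshold for both cocultures (limma adjusted p = 0.0457), as did leaving out T cell coculture replicate 1. The latter fit left a lone array in that group, and both fits gave more calls over all probe sets. In the comparison of both cocultures BATF did not pass under the other 10 alternatives (limma adjusted p from 0.0511 to 0.0864 where all arrays were kept). Without monoculture replicate 2 its difference was -0.55, and without replicate 1 it was -0.96.

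Of the JUN family, JUN had lower values in the cocultures and JUNB and JUND overlapped with monoculture over the 4 coculture arrays, and none passed the test. JUN, the partner that both FOS and BATF proteins use, stood at 7.02 and 7.28 in monoculture, 6.47 and 6.24 in T cell coculture, and 6.40 and 6.45 in monocyte coculture. Every coculture array lay below both monoculture arrays, and the cocultures overlapped with each other. The difference was -0.76 ± 0.11 over both cocultures (1.69-fold, interval -1.03 to -0.48, limma adjusted p = 0.0508), -0.79 ± 0.13 with T cells (adjusted p = 0.112) and -0.72 ± 0.13 with monocytes (adjusted p = 0.0683). Between monocyte and T cell coculture it was 0.071 ± 0.13 (interval -0.25 to 0.39). JUN thus lay at the edge of the threshold. For both cocultures it passed after median centring (-0.82, limma adjusted p = 0.0447) and without the dimmest probe sets (adjusted p = 0.0402). It also passed with both cocultures fitted as 1 group (adjusted p = 0.0415) and without T cell coculture replicate 1 (-0.81). That last fit left a lone array in its group and gave more calls over all probe sets. In the same comparison JUN did not pass with quantile normalization (limma adjusted p = 0.0569), the replicate block (0.0594) or the trended prior (0.0681). Nor did it pass there without any 1 of the other 5 arrays. Counts of called members for each coculture alone under the alternatives are given in the last section.

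JUNB, which restrains proliferation in many cell types and is highly expressed in classical Hodgkin lymphoma, stood at 8.57 and 9.02 in monoculture, 9.05 and 8.16 in T cell coculture, and 8.85 and 8.32 in monocyte coculture. The groups overlapped, and the replicates of JUNB lay further apart than those of any other member in each group, by 0.45, 0.88 and 0.52 log2 units. In both cocultures replicate 1 was the higher array, and in monoculture replicate 2 was. The difference over both cocultures was -0.20 ± 0.29, with an interval from -0.90 to 0.50, which includes decreases as large as that of BATF. JUND, a JUN protein that resting cells express as well, stood between 6.38 and 6.495 in all 6 arrays. Its difference was 0.021 ± 0.074 (interval -0.16 to 0.20), a value of -0.041 after median centring.

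No member of the FOS family passed the test. FOS, the early response gene that serum and antigen receptor signals induce, stood at 5.67 and 5.93 in monoculture, 5.90 and 5.53 in T cell coculture, and 6.02 and 5.67 in monocyte coculture. These values overlapped, with replicate 1 the higher in both cocultures and the lower in monoculture, as for JUNB. The difference over both cocultures was -0.021 ± 0.16 (interval -0.41 to 0.37). FOSB differed by -0.0039 ± 0.086 over both cocultures (interval -0.21 to 0.21), with values between 5.59 and 5.85.

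FOSL1, which encodes FRA1, differed by 0.11 ± 0.079 (interval -0.079 to 0.31). All 4 coculture arrays of FOSL1, between 6.15 and 6.27, lay above the monoculture arrays at 6.10 and 6.11. FOSL2, which encodes FRA2, stood at 5.83 and 5.84 in monoculture, 5.79 and 6.33 in T cell coculture, and 6.26 and 6.09 in monocyte coculture. T cell coculture replicate 1 thus lay with monoculture and the other 3 coculture arrays above it. The difference of FOSL2 was 0.28 ± 0.16 over both cocultures (interval -0.10 to 0.67, limma adjusted p = 0.413), and 0.42 (adjusted p = 0.0652) without T cell coculture replicate 1. No detection calls were used, so whether FOS family transcripts were above background is not known. All 10 members lay above the 40% dimmest probe sets.

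MAPK8, which encodes the kinase JNK1, stood at 6.91 in both monoculture arrays, 7.43 and 8.16 in T cell coculture, and 7.71 and 8.15 in monocyte coculture. Every coculture array was higher than monoculture, and replicate 1 was the lower array in both cocultures. The difference over both cocultures was 0.95 ± 0.22 (1.93-fold, interval 0.41 to 1.495, limma adjusted p = 0.0949). It was 0.88 ± 0.26 with T cells (adjusted p = 0.199) and 1.02 ± 0.26 with monocytes (adjusted p = 0.118). The cocultures differed from each other by 0.13 ± 0.26 (interval -0.49 to 0.76). Without T cell coculture replicate 1 the difference over both cocultures was 1.13, and without replicate 2 it was 0.77. MAPK8 passed in the fit without replicate 1, which left a lone array in that group and gave more calls over all probe sets. In the comparison of both cocultures MAPK8 passed under no other alternative (limma adjusted p from 0.0636 to 0.109 where all arrays were kept). Counts of called members for each coculture alone under the alternatives are given in the last section. Without monocyte coculture replicate 1, the array with high LYZ, the difference over both cocultures was 1.06 for MAPK8, -0.74 for JUN and -0.79 for BATF. With monocytes it was 1.24 for MAPK8, -0.69 for JUN, -1.01 for BATF and -1.37 for BATF3. That fit holds a lone monocyte coculture array, so effect sizes alone are given. The study named MAPK8 as a gene higher in coculture from these same arrays, so its direction is no independent evidence.

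Counted array by array, 2 members (FOSL1 and MAPK8) had all 4 coculture arrays above both monoculture arrays, where 15.2% of all probe sets did, and 3 (JUN, BATF and BATF3) had all 4 below, where 13.8% did. For T cell coculture against monoculture, 3 members did not overlap upward (FOSL1, JUND and MAPK8) and 3 downward (JUN, BATF and BATF3), against 25.7% and 20.9% of all probe sets. For monocyte coculture these were 4 (FOSB, FOSL1, FOSL2 and MAPK8) and 3 (JUN, BATF and BATF3), against 27.8% and 22.4%. Both comparisons share the monoculture arrays. Between monocyte and T cell coculture, which share no array, 1 member was higher without overlap (FOSB) and 3 were lower (JUND, BATF and BATF3), against 17.6% and 17.1% of all probe sets. Here limma called 0 members and 0% of all probe sets, with 1 of 10 members (BATF3) at an unadjusted p under 0.05, close to the 7.49% of all probe sets.

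**Figure D2:**
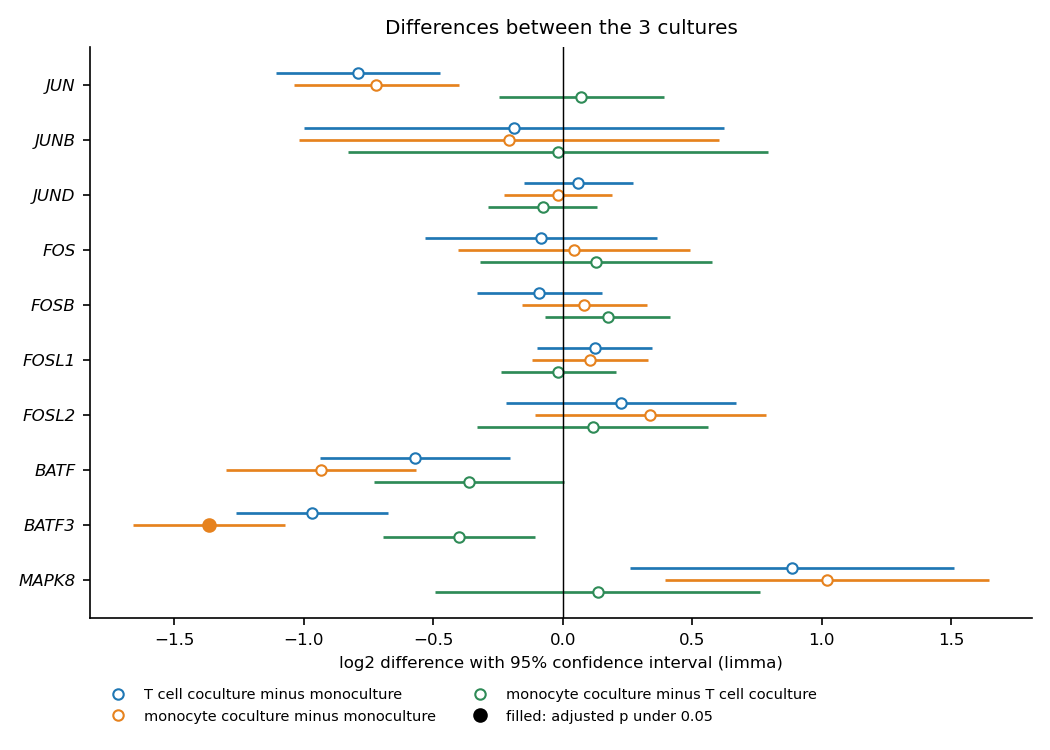
Log2 difference of each member with its 95% confidence interval from limma, for T cell coculture minus monoculture (blue), monocyte coculture minus monoculture (orange) and monocyte minus T cell coculture (green); filled points have an adjusted p under 0.05. The filled point is BATF3 with monocytes, at -1.37, and the intervals of JUN, BATF, BATF3 and MAPK8 against monoculture exclude 0 before adjustment.

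**Figure D3:**
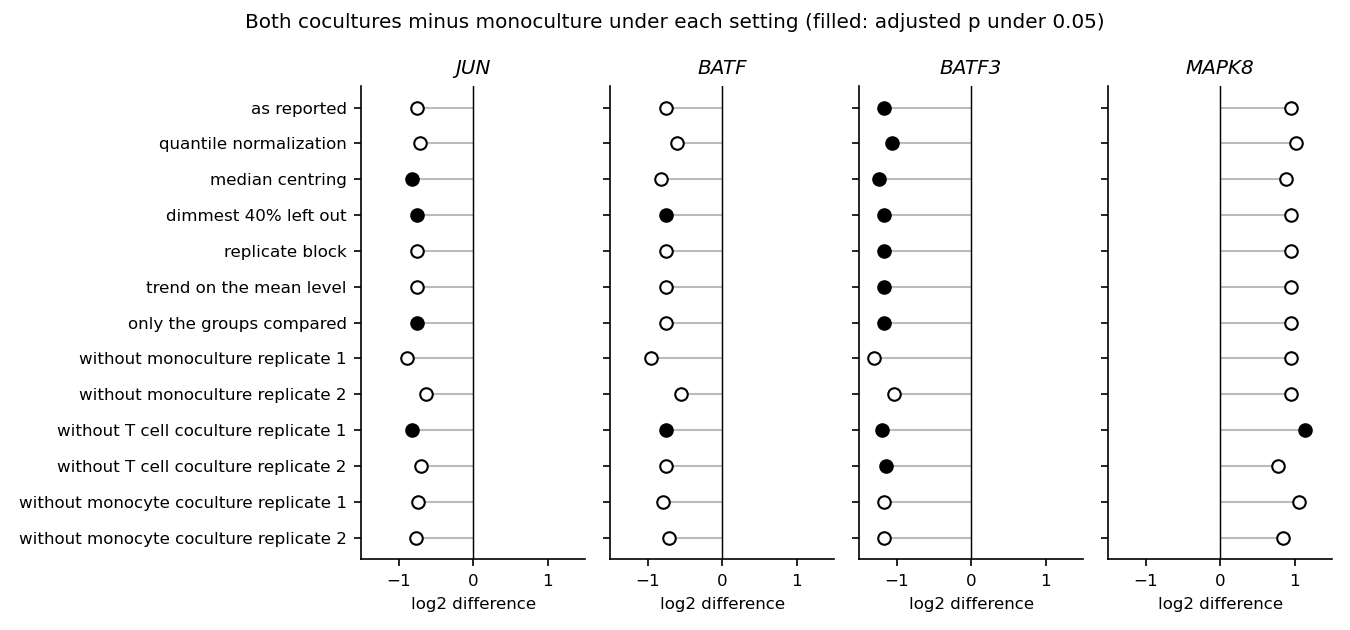
Log2 difference over both cocultures for JUN, BATF, BATF3 and MAPK8 as reported and under 12 other settings; filled points have an adjusted p under 0.05. The sign of each gene was the same under all settings. BATF3, from -1.30 to -1.03, lost its call in 4 of the 6 fits that leave out an array. Calls over all probe sets also varied widely across those fits.

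Partners of the AP-1 proteins had higher and lower means in similar number. Of 12 further bZIP partners 10 were measured, 6 with higher and 4 with lower means in the cocultures (median 0.093), and limma called 0, with 1 at an unadjusted p under 0.05. This was MAFG, a small MAF protein, which stood at 7.38 and 7.63 in monoculture, 8.52 and 9.16 in T cell coculture, and 8.37 and 8.52 in monocyte coculture (1.14 ± 0.19, limma adjusted p = 0.0565). MAFG had 3 probe sets, and only that of highest mean is given. ATF4, the factor of the amino acid response, differed by -0.28 ± 0.12, BATF2 by 0.19 ± 0.091 and the repressor JDP2 by -0.21 ± 0.11. Of 7 factors that bind composite sites with AP-1, all measured, 4 had higher and 3 lower means (median 0.082), and limma called 0, with 3 at an unadjusted p under 0.05. These were IRF4, the partner of BATF in B cells, at -0.34 ± 0.099 (10.21 and 10.39 in monoculture, 10.18 and 10.01 with T cells, 9.76 and 9.88 with monocytes), IRF8 at -0.38 ± 0.11, and ETS1 at -1.03 ± 0.31. NFATC1 differed by 0.18 ± 0.087. The share at an unadjusted p under 0.05 was 10% for the bZIP partners and 42.9% for the composite site factors. It was 18.8% for all probe sets.

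Upstream of JUN, 18 of 21 kinases of the JNK cascade were measured, 10 with higher and 8 with lower means (median 0.033). Limma called 0 of them, with 3 at an unadjusted p under 0.05: the stress kinase MAP3K5 (ASK1) at 0.43 ± 0.11, MAPK10, which encodes JNK3, at 0.33 ± 0.094, and MAP3K9 at 0.20 ± 0.075. MAP3K1 followed at -0.18 ± 0.081. The MAPK10 values were low, at 5.30 and 5.33 in monoculture and between 5.47 and 5.86 in the cocultures. Array medians over all probe sets lay between 5.64 and 5.73. MAPK9, which encodes JNK2 and was looked up after its values were seen, differed by 0.12 ± 0.097 (interval -0.12 to 0.35), next to 0.95 for MAPK8. Of 12 scaffolds and activators 10 were measured and 8 had higher means (median 0.095). Limma called 0, with 1 at an unadjusted p under 0.05, the scaffold SPAG9 (JIP4) at 0.36 ± 0.087. GADD45A at 0.39 ± 0.18, GADD45B at 0.70 ± 0.39 and CDC42 at -0.17 ± 0.092 followed. An unadjusted p under 0.05 was reached by 16.7% of the kinases and 10% of the scaffolds and activators, against 18.8% of all probe sets. Over all probe sets 18579 of 32321 had higher means.

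Phosphatases listed for the JNK pathway were measured for all 7 genes, 4 with higher and 3 with lower means (median 0.14). Limma called 0, with 2 at an unadjusted p under 0.05: DUSP16, a phosphatase of JNK and p38, at 0.53 ± 0.10 (limma adjusted p = 0.07) and DUSP4 at 0.28 ± 0.091. DUSP8 differed by 0.26 ± 0.12 and DUSP10 by -0.27 ± 0.14. In the parallel ERK and p38 pathways 16 of 20 genes were measured and 11 had higher means (median 0.15). Limma called 0, with 3 at an unadjusted p under 0.05: the ERK pathway inhibitors SPRED1 (0.57 ± 0.12) and SPRY2 (0.39 ± 0.12), and MAP2K1, which encodes MEK1 (0.24 ± 0.092). MAP2K2 differed by 0.24 ± 0.11. An unadjusted p under 0.05 was reached by 28.6% of the phosphatases and 18.8% of the ERK and p38 genes, against 18.8% of all probe sets.

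Of 20 genes that are induced early together with FOS, or that activate them, 18 were measured, 11 with higher and 7 with lower means (median 0.020). Limma called 0, with 3 at an unadjusted p under 0.05. These were MRTFB, a coactivator of serum response factor, at -0.70 ± 0.16, the ETS factor ELK3 at -1.02 ± 0.23, which the study had named as lower from these arrays, and the nuclear receptor NR4A1 at 0.64 ± 0.26. KLF6 differed by 0.39 ± 0.23. The share of early response genes at an unadjusted p under 0.05 was 16.7%, against 18.8% of all probe sets. Of 8 genes of AP-1 turnover, 7 were measured and 6 had lower means (median -0.43, against 0.028 over all probe sets). Among them were subunits of the ubiquitin ligase that marks JUN for degradation: CUL4A at -0.87 ± 0.19, DDB1 at -0.72 ± 0.16, COP1 at -0.54 ± 0.13 and DET1 at -0.43 ± 0.12. For each of these 4 genes all coculture arrays lay below monoculture and the unadjusted p was under 0.05. Limma called 0 after adjustment (CUL4A adjusted p = 0.0851). All coculture arrays were lower for 13.8% of all probe sets, and 18.8% had an unadjusted p under 0.05. ITCH, named for its direction, had the higher mean (0.16).

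Genes described as AP-1 targets in lymphoid or other cells also split, with 15 of 21 at higher and 6 at lower means (median 0.047). Over all probe sets 18579 of 32321 had higher means. Limma called 1 of the targets, where 0.718% of all probe sets were called. An unadjusted p under 0.05 was reached by 6 (28.6%), against 18.8% of all probe sets. PRDM1, the regulator of plasma cell differentiation (BLIMP1), rose by 0.92 ± 0.12 (1.89-fold, limma adjusted p = 0.0454), from 8.85 and 9.03 in monoculture to 9.86 and 10.16 with T cells and 9.63 and 9.79 with monocytes. This call was lost without monoculture replicate 1 (0.83), monoculture replicate 2 (1.01), monocyte coculture replicate 1 (0.96) or monocyte coculture replicate 2 (0.88). Calls over all probe sets also varied widely across the fits that leave out an array. CD274 (PD-L1) differed by 1.09 ± 0.17, MYC by -3.06 ± 0.48 and IL6 by -1.14 ± 0.26, each short of the threshold. CD274 and MYC had been named by the study from these arrays. The study also reported MYC lower and CD274 slightly higher by RT-PCR and Western blot in DEV cells after coculture. The difference of TNFRSF8 (CD30), a known target of JUNB looked up after its values were seen, was 0.037 ± 0.097. LGALS1 (galectin 1), looked up likewise, stood at 6.90 and 7.48 in monoculture, 7.18 and 8.18 in T cell coculture, and 8.50 and 8.74 in monocyte coculture, the highest values in the cocultures with monocytes (1.43 ± 0.35, limma adjusted p = 0.113). CD68 was highest in the same arrays, and its part in the LGALS1 values was not tested. CXCL8 (interleukin 8), also looked up after its values were seen, stood at 8.92 in the monocyte coculture array with high LYZ and between 5.52 and 5.84 in the other 5 arrays.

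**Figure D4:**
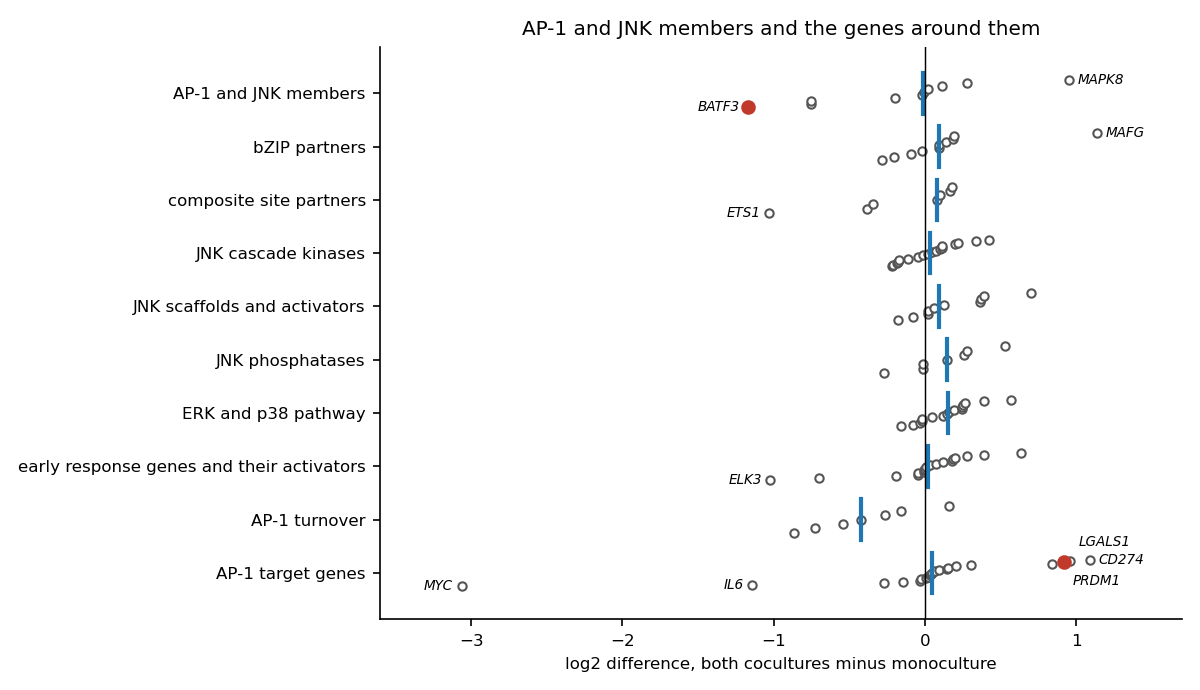
Log2 difference over both cocultures for each measured gene of the members and of 9 lists of genes around them; each point is 1 gene, blue bars are list medians, red points have an adjusted p under 0.05, and genes beyond 0.9 in size are named. The red points are BATF3 (-1.17) and PRDM1 (0.92), and the list furthest from 0 is AP-1 turnover with a median of -0.43.

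For the members with the largest differences in size, the most similar profiles were looked for among 18394 other genes, by the mean absolute difference of deviations from each gene's own mean over the 6 arrays. BATF3 was most like THOC7, a subunit of the mRNA export complex THO (0.070 log2 units), TIMM8B, a chaperone of mitochondrial import (0.078), and the splicing factor SRSF3 (0.095). Against monoculture their differences over both cocultures were -1.03 ± 0.082, -1.08 ± 0.13 and -1.20 ± 0.088. MAPK8 was most like SPSB1 (0.033), the TGF-beta signal carrier SMAD3 (0.060) and KLHL24 (0.077). Their differences were 0.89 ± 0.22, 0.88 ± 0.18 and 1.08 ± 0.23, and as in MAPK8 replicate 1 was the lower array in both cocultures. Genes picked by likeness over these same 6 arrays share such differences and orders by selection, for BATF3 as for MAPK8.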

How the data were processed

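RNA of DEV cells was amplified, biotinylated and measured on Affymetrix human Gene 1.0 ST arrays, 1 per sample. The deposited values are on the log2 scale and were normalized by the authors. How probes were summarised, corrected for background and scaled is not given in the sources used here. Values were used as deposited, with 0 missing. Groups and replicate numbers came from the labels. Of the 32321 probe sets 19158 carried 1 gene symbol, 1388 several and 11775 none in the platform annotation used here, and those with several were left unnamed. A gene with more than 1 probe set was represented by that of highest mean.

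One mean per group was fitted in limma (version 3.58.1, R 4.3.3; lmFit and eBayes, 3 residual and 3.08 prior degrees of freedom), with 4 comparisons, Benjamini-Hochberg adjustment over all probe sets and calls at an adjusted p under 0.05. The number of arrays limits the precision. The members and gene lists were chosen with earlier results of these data known. Named genes are all members and, from each of the 9 lists, every called gene and up to 4 of smallest p for both cocultures; exceptions are stated. Marker lists covered B, T and NK cells, monocytes and platelets. The fit was tested on simulated data. Alternatives were quantile normalization, median centring, a filter on dim probe sets, a replicate block, a trended prior, fits of the compared groups alone, and leaving out each array.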

Additional observations from a re-analysis of the deposited data

How the results depend on the processing

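When the 40 differences (10 members, 4 comparisons) were recomputed under 12 alternatives, 418 kept their direction and side of the threshold, 20 newly passed, 9 no longer passed and 33 changed sign. BATF3 kept its sign throughout, and its call for both cocultures under quantile normalization (-1.06), median centring (-1.23), the filter on dim probe sets, the trended prior and the replicate block (-1.17, limma adjusted p = 0.0408). With monocytes its call was lost with the trended prior (adjusted p = 0.0556). For both cocultures, 2 members were called after median centring, 3 without the dimmest probe sets and 2 with the compared groups alone. With monocytes, 2 were called without the dimmest probe sets, 0 with the trended prior and 4 with the compared groups alone. Leaving out each array gave 0 to 4 called members for both cocultures, 0 to 3 with T cells (3 without T cell coculture replicate 1) and 0 to 4 with monocytes (4 without either T cell coculture array, where the lone array adds nothing to the spread), with medians of -0.11 to 0.042, -0.18 to 0.039 and -0.091 to 0.074, while monocyte against T cell coculture gave 0 to 0 called members and medians of -0.062 to 0.042. A lone array was assumed to vary like the others. Over all probe sets 232 were called for both cocultures, but 564 after median centring, 756 without the dimmest, 55 with the trended prior and 0 to 2329 when arrays were left out. With monocytes 187 were called, against 440, 572 and 0 under the same settings, 1167 with the compared groups alone and 0 to 1167 when arrays were left out, and with T cells 0 were called, against 1391 without T cell coculture replicate 1. Where a sign changed, the cause was not tested. JUND stood at -0.041 for both cocultures after median centring, FOS with monocytes at -0.012 after quantile normalization and -0.024 after median centring, and JUNB between the cocultures at 0.059 after quantile normalization. Leaving out arrays moved FOS from -0.15 to 0.11, FOSB from -0.064 to 0.056 and JUNB from -0.42 to 0.027 for both cocultures. With T cells FOS ran from -0.27 to 0.099, FOSL2 from -0.047 to 0.49 and JUNB from -0.63 to 0.25, and with monocytes FOS ran from -0.13 to 0.22, JUNB from -0.47 to 0.055 and JUND from -0.049 to 0.013. Between the cocultures FOS ran from -0.056 to 0.31, FOSL1 from -0.076 to 0.040, FOSL2 from -0.16 to 0.39, JUN from -0.045 to 0.19, JUNB from -0.46 to 0.42 and MAPK8 from -0.23 to 0.50. Same-numbered arrays deviated together between the cocultures (r = 0.26 across probe sets) but not with monoculture (0.027 and -0.15). A pairing that includes monoculture is thus not shown. Whether same-numbered cocultures were handled together is not given in the labels. With the replicate block 1 member was called for both cocultures, 0 with T cells, 1 with monocytes and 0 between the cocultures, and 292 of all probe sets for both cocultures in place of 232. Averaging the probe sets of a gene was not run, since each member has 1. PRDM1, examined after the data were seen, ran from 0.83 to 1.01 when arrays were left out, and was not called with the trended prior (adjusted p = 0.0665) or with both cocultures fitted as 1 group (0.0508).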
